A study of Mus musculus with 8 samples.

Results

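Broad open domains are stretches of accessible chromatin that ran for at least 5000 bp without a break once the ATAC-seq peaks of 8 libraries of SN4741 cells were laid over each other. The domains were chosen by their measured width: peaks sharing 1 bp or more were joined across libraries, and a joined region counted if it reached 5000 bp, lay on chromosomes 1 to 19 or X, and had a peak in each of the 8 libraries. There were 3334 such domains among 44848 regions called in all 8 libraries (7.43%) and among 98045 merged regions in all. A further 142 merged regions were as wide but lacked a peak in at least 1 library. Width and presence in every library chose the domains, so both are given as descriptions.

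SN4741 is a mouse line, labelled as neural precursor cells of wild-type genotype, that was set up as a clone from embryonic substantia nigra and carries a temperature-sensitive SV40 T antigen driven by a tyrosine hydroxylase promoter. All 8 libraries therefore carry the transgene. The 37C group (4 libraries) grew at 37 °C in medium with 10% fetal bovine serum, and the 39C group (4 libraries) had been held at 39 °C in medium with 0.5% serum for 48 hours. The T antigen has diminished activity at the higher temperature, so temperature, T antigen activity and serum cannot be told apart in any comparison here. Each library came from an aliquot of 50000 cells. The labels do not say whether the 4 replicates were separate cultures, so p-values measure the spread between these libraries.

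ATAC-seq marks DNA that a transposase can reach, and most open sites are short gaps between nucleosomes at a promoter or an enhancer. Domains many nucleosomes long form where enhancers crowd together around genes that define a cell's identity, over promoters with large CpG islands, over short genes that are transcribed heavily, and across clusters of genes such as the histone genes. Immediate early genes, which serum and growth factors switch on within minutes, are a known example of short genes kept in open chromatin from end to end. Regions of the assembly that collapse many copies of a repeat also give wide peaks, and these were set apart.

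The centres of some domains show the sequence that the highest point of accessibility sat on. The windows below are 201 bases of the plus strand of mm10 on the median summit of the 8 libraries, for 8 of the domains described later, and none of them overlaps an annotated exon. They were chosen to show 2 of the widest domains, the 2 that were covered more at 39 °C, 1 that nearly closed, and 3 whose height changed. Capitals mark matches, on either strand, to the motifs of AP-1 (TGANTCA), TEAD (GGAATG), RUNX (TGTGGT), SP factors (GGGCGG), NFY (CCAAT) and an E-box (CAGCTG), or to a p53 half-site. No matches overlapped in these windows.
Ahnak, chr19:8983137-8983337, AP-1, TEAD and NFY: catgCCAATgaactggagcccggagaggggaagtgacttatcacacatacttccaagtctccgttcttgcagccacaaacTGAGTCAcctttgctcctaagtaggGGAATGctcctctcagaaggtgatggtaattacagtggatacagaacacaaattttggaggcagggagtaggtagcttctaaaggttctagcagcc
Baiap2, chr11:119989132-119989332, AP-1 and NFY: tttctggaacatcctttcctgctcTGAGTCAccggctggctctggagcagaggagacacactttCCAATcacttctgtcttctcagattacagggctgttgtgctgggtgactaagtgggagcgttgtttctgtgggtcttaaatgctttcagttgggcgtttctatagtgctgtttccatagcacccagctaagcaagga
Mn1, chr5:111417133-111417333, SP, NFY and TEAD: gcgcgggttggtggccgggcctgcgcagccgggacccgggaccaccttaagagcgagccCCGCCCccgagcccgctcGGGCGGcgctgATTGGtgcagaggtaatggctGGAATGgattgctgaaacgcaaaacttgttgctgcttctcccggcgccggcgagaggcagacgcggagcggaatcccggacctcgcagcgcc
Near Ccne2, chr4:11176198-11176398, p53 and TEAD: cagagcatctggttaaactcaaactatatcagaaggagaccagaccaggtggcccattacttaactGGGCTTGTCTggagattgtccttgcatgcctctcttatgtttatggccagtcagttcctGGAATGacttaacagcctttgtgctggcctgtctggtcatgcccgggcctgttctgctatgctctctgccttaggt
Bahcc1, chr11:120280294-120280494, RUNX: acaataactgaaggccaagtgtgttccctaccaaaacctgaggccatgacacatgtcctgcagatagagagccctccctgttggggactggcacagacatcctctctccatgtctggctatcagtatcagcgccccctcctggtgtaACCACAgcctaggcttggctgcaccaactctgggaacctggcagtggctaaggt
Loxl1, chr9:58299428-58299628, TEAD and E-box: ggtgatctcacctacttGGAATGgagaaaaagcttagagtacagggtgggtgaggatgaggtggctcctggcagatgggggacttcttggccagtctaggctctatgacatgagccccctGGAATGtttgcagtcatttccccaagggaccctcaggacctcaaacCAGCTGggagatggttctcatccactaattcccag
Nav2, chr7:49209701-49209901, p53 and RUNX: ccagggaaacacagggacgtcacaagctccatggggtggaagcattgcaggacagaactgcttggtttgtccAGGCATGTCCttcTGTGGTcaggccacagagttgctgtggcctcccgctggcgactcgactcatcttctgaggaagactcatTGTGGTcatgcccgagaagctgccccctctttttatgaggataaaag
Rtn4r, chr16:18154973-18155173, RUNX: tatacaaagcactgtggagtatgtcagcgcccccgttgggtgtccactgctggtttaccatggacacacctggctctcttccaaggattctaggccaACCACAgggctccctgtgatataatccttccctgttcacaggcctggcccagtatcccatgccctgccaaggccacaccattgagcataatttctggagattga
Over the 44848 regions called in all 8 libraries, the same window held AP-1 in 31.2%, TEAD in 16.5%, RUNX in 23.6%, SP in 21.7%, NFY in 23.0%, the E-box in 15.1% and the p53 half-site in 6.83%.

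The libraries differed in depth along the same axis as the groups. Replicates 1 and 4 at 37 °C kept 169 and 158 M fragments (M, mega), and the other 6 libraries kept 49.8 to 71.2 M. The weakest peak called in the 2 deep libraries stood 1.54 and 1.58 times above the genome-wide background, against 1.90 to 2.14 times in the other 6, so the edges of a domain were called further out in the deep libraries. Replicate 4 at 39 °C had the fewest peaks (54845) and the lowest median height in the domains, 38.7-fold over background against at least 59.6 in each of the other 7 libraries. Totals, counts and lists of covered length are therefore also given for the 6 libraries under 100 M fragments, which leaves 2 libraries at 37 °C, as are single domains whose call ended there.

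The domains had a median width of 6882 bp (interquartile range 5694 to 9231 bp) and together spanned 28.3 Mb, or 26.2% of the length of all regions called in every library. There were 674 of at least 10 kb, 109 of at least 20 kb and 32 of at least 30 kb, and the widest reached 89168 bp. The other 41514 regions called in all 8 libraries had a median width of 1672 bp. At the threshold, the narrowest domains were 5000 bp (23005 bp from Snai1), 5001 bp (12731 bp from the start of Ipmk) and 5001 bp (Eva1c), and the widest regions left out were 4999 bp (Tmcc2) and 4999 bp (Ercc1).

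Whether a region was a single domain or a chain of peaks differed between them. A single unbroken peak of at least 5000 bp lay in 430 domains (12.9%) in all 8 libraries, in 815 domains in exactly 1 library, and in 165 in none, where shorter peaks of different libraries joined end to end. Such a peak need not cover the whole domain. The stretch under a peak in all 8 libraries had a median of 3664.5 bp, or 51.8% of the width, and was 5000 bp or longer in 853 domains. In 14 domains no base lay under a peak in every library. The median share of a domain's width that was covered was 99.2% and 94.8% in the 2 deepest libraries and 56.1 to 85.1% in the other 6, so the merged width is mostly that of the deepest libraries.

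**Figure D1:**
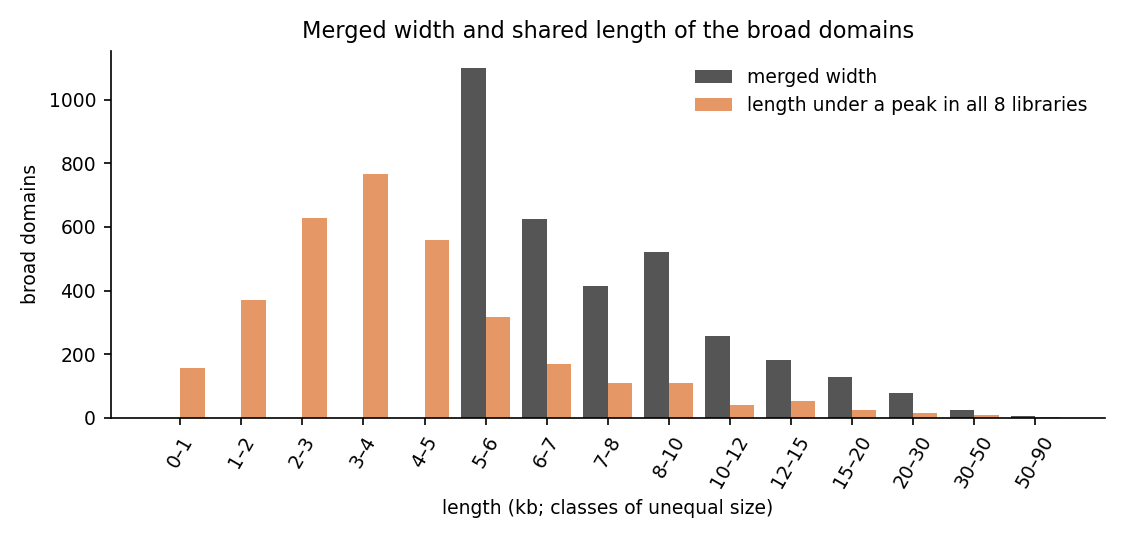
Number of broad domains (vertical axis) by length in kb (horizontal axis, classes of unequal size), for the merged width (grey) and for the length under a peak in all 8 libraries (orange). Every merged width is 5 kb or more by the rule, whereas the shared length peaks in the class from 3 to 4 kb, with 765 domains.

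Most domains held a promoter. A start site of a protein-coding gene (GENCODE M21) lay in 2010 of 3334 domains (60.3%), against 23.5% of the narrower regions called in all 8 libraries. Of the rest, 821 lay in the body of a coding gene and 503 outside coding genes. A CpG island, found by base composition, lay in 76.6% of domains against 31.5% of narrower regions, and the median GC content was 52.3% against 48.3%. A region that is wider by choice has more room for any feature, and the narrower regions that hold a coding start had an island in 92.7%, close to the 95.6% of domains that hold one. The domains were also taller, with a median highest fold enrichment of 59.4 against 13.6, and among regions with a coding start 72.2 against 51.8.

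Open chromatin ran over whole genes in some domains. In 510 domains (15.3%) at least 1 coding gene lay inside from end to end, 643 genes in all, against 178 of the narrower regions (0.429%). In 358 domains there were 2 or more coding starts. Of the domains of at least 10 kb, 36.8% held a whole coding gene and 72.7% a coding start. Exons made up 21.4% of the bases of the domains and 13.3% of those of the narrower regions.

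Domains with a single coding start were lopsided along the gene. In the 1618 of them that were not artefact-like, the domain reached a median of 1929.5 bp upstream of the start and 4885 bp downstream, and 1322 (81.7%) reached further downstream than upstream. The end of the gene lay within the domain in 292, and the median gene was 20.2 kb long. The start was taken as the outermost annotated start of the gene within the domain, which lengthens the downstream side of genes with several.

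The summits of domains without a coding start carried different motifs from those of domains with one. Of the 1324 domains without a coding start, 30.8% had AP-1 within 100 bp of the median summit, 25.7% RUNX, 19.7% TEAD and 15.5% SP. Of the 2010 with a coding start, 6.77% had AP-1, 8.26% RUNX, 9.40% TEAD and 60.8% SP. The narrower regions split the same way: 40.9% of those without a coding start had AP-1 and 60.2% of those with one had SP. Domains outside promoters therefore held AP-1 at their summit less often than narrower regions outside promoters, as a description with no test. In 63.8% of domains the summits of all 8 libraries lay within 100 bp of the median, and in the others the median can fall between separate peaks.

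The genes of the immediate early and AP-1 list, chosen with earlier results of these data known, all stood inside broad domains. All 25 genes of that list had a start in a domain, against 2401 of 21728 protein-coding genes (11.1%), or 18.8% of the 12742 coding genes whose start lay in any region called in all 8 libraries. They included Fos, Fosb, Fosl1, Fosl2, Jun, Junb and Jund, which encode the subunits of AP-1, the zinc finger factors Egr1, Egr2 and Egr3, Myc, Srf, and the feedback genes Dusp1, Zfp36 and Ier2. Their 27 domains were 6109 to 30451 bp wide with a median of 9144 bp, and 15 of them held a single peak of at least 5000 bp in all 8 libraries. The widest was Fosl2 at 30451 bp (chr5:32131644-32162094), of which 17744 bp were shared. Nr4a1 and Dusp1 each had starts in 2 separate domains. Nr4a2, of the same family as Nr4a1 and Nr4a3, was placed on the dopaminergic list and was not in a domain (4365 bp).

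Within the list, the domains varied in how much of their width was shared. The domain of Fos (9009 bp, chr12:85471564-85480572) was covered over 9009, 8501, 5766 and 8587 bp at 37 °C and over 7887, 6360, 7111 and 5631 bp at 39 °C. The groups overlapped, and the difference of log2 covered length was -0.23 ± 0.16 (SE, adjusted p = 0.306), 39 °C minus 37 °C. Jun (6409 bp, chr4:95047927-95054335) kept 5964 to 6305 bp covered in all 8 libraries. Fosb (12020 bp) had 9938 bp under a peak in every library, and Atf3, a stress-responsive factor, only 2198 of 6475 bp.

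Genes read out by the YAP and TEAD pathway, which responds to cell shape and stretch, followed at 8 of 12 (Wwtr1, Tead4, Ccn1, Ccn2, Ankrd1, Amotl2, Axl and Lats2). Mesenchymal genes stood at 13 of 22, among them the fibroblast factors Prrx1, Prrx2, Twist2, Snai1 and Zeb2, the collagen gene Col1a1 and Vim, which encodes vimentin. Cell cycle and p53 genes stood at 9 of 14, with Mdm2, Trp53, Cdkn1a, Cdkn2a, Cdkn2b and the 3 D-type cyclins. Replication-dependent histone genes stood at 39 of 67, in 14 domains of 5010 to 15953 bp.

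Neural progenitor genes, the labelled identity of the line, were in domains at 8 of 19 (42.1%, beside 11.1% of coding genes): Nes, Hes1, Notch1, Id1, Id2, Id3, Hmga2 and Irx3. None of 14 dopaminergic genes was, which for a list of this length is near the share of all coding genes. Of those, 7 (Th, Nr4a2, Pitx3, Foxa1, Foxa2, En1 and En2) had a start in a region called in all 8 libraries, the widest being Nr4a2 at 4365 bp and Th at 3309 bp. No peak of any library lay on a start of Lmx1a, Lmx1b, Otx2, Ddc or Slc18a2. Homeobox clusters, which carry long domains in many embryonic cells, gave 7 of 72 genes, with a 20433 bp domain over Dlx1 and Dlx2 and no Hox gene. Markers of other cell types gave 3 of 16: Cd68, whose domain also holds Eif4a1 and Mpdu1, Krt8, and Tubb3, whose domain also holds Mc1r. Heat shock genes stood at 5 of 13, TGF-beta and BMP genes at 7 of 16 and noncoding RNA hosts at 7 of 15.

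**Figure D2:**
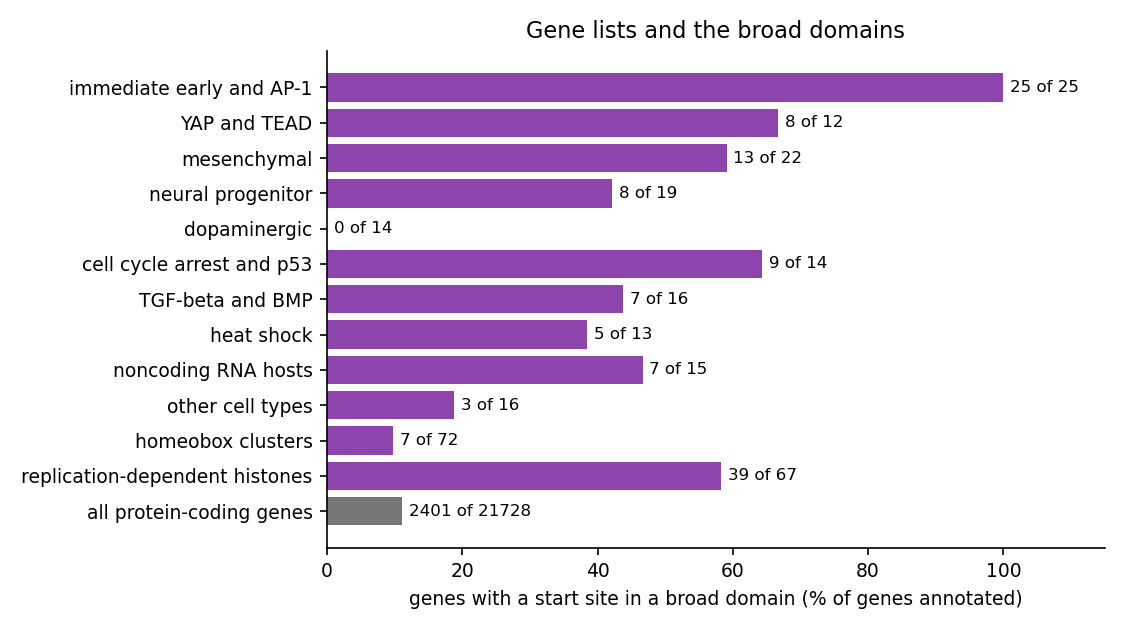
Share of the genes of each list (percent of genes annotated, horizontal axis) that had a start site in a broad domain, with the counts beside each bar and all protein-coding genes in grey. All 25 genes of the immediate early and AP-1 list were in a domain, none of 14 dopaminergic genes was, and the share among all coding genes was 11.1%.

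The widest domain outside the artefact-like set ran 63124 bp over Malat1 and Neat1 (chr19:5790834-5853957), neighbouring genes of abundant nuclear noncoding RNAs, together with Frmd8os. It was covered over 61397 to 63124 bp at 37 °C and 59544 to 62172 bp at 39 °C, and 93.5% of its width lay under a peak in every library. Ahnak, which encodes a giant scaffold protein, came next at 61526 bp (chr19:8974544-9036069), with 74.7% shared. Each of the 10 widest held a single peak of at least 5000 bp in all 8 libraries.

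Also among the 10 widest were the 46133 bp stretch from Stk11 to Cirbp, which holds the starts of 5 coding genes (chr10:80123112-80169244), Inf2 with Adssl1 (44750 bp), a domain over parts of Aatk and Baiap2, called the Baiap2 domain here, 18172 bp from the start of Aatk and with no coding start of its own (41514 bp, chr11:119982097-120023610), Mdm2 (36553 bp, chr10:117676100-117712652), a domain 12419 bp from the start of Timp3 (34523 bp), Tpm1 (34314 bp) and Smad7 (33675 bp). Outside the artefact-like set, which removes the most extreme heights, the tallest by mean fold enrichment were Pim3 (166), Irs2 (163), Ahnak (163), Arrdc3 (162) and Ifrd1 (162). Arrdc3 was near the width limit, at 5478 bp, with 94.1% of it shared by all libraries.

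Domains were unevenly spread along the genome. There were 33.7 per 10 Mb on chromosome 11, 30.4 on chromosome 19 and 28.9 on chromosome 15, against 2.46 on chromosome X and 5.52 on chromosome 14. Another domain lay within 50 kb of 65.5% of them, and the median gap to the nearest was 21.0 kb. The fullest 2 Mb window, 80 to 82 Mb on chromosome 10, held 65 domains that spanned 772 kb, and windows at 4 to 6 Mb on chromosome 19 and 78 to 80 Mb on chromosome 15 held 44 and 42. The number of copies of each chromosome in the line cannot be read from the peak lists.

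A total of 118 domains (3.54%) were artefact-like by rules on repeats, multi-copy sequence, assembly gaps and extreme height. Multi-copy sequence marked 83, repeats 39, extreme height 31 and gaps 19, with some marked by several. The widest was the 89168 bp region 17124 bp from the start of Gas8 (chr8:123535980-123625147), in which 94.4% of 50-base words occur more than once in the genome. The next was Sfi1 (78651 bp, chr11:3121376-3200026), 42.9% multi-copy, with a mean fold enrichment of 357. A 38335 bp region at the start of the assembled chromosome 9 was 96.3% repeat and reached 862-fold. Myh9 (71811 bp, chr15:77772665-77844475) and Plec (46893 bp, chr15:76167684-76214576), genes of the cytoskeleton, were set apart by height alone, with 1.13% and 0.438% multi-copy sequence. Of the 118, 22 (18.6%) were covered less at 39 °C by the test described below, near the 16.4% of all regions and under the 47.5% of all domains.

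Domains were covered over less of their length at 39 °C. The length under peaks was 27.5, 23.7, 21.4 and 26.3 Mb in the 37 °C libraries and 19.6, 19.1, 17.9 and 15.8 Mb in the 39 °C libraries. Every 37 °C library lay above every 39 °C library, the shallowest at 37 °C included. The means were 24.7 ± 2.72 Mb (SD, n = 4) and 18.1 ± 1.70 Mb (SD, n = 4), a difference of -6.65 Mb. It is given with no test, since peak width chose the domains and the merged width is mostly that of the deep 37 °C libraries. Without 1 of the 39 °C libraries the difference was -7.16, -6.99, -6.58 or -5.89 Mb for replicates 1 to 4, and in the 6 libraries under 100 M fragments it was -4.48 Mb.

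The size of the difference changed with the extents used. When the extents were set by the 39 °C libraries alone, as merged 39 °C peaks of at least 5000 bp present in all 4, there were 1381 domains, and the covered length in them was 10.6, 10.1, 9.63 and 10.5 Mb at 37 °C and 10.3, 10.2, 9.62 and 8.83 Mb at 39 °C. The groups overlapped and the difference was -0.471 Mb. Extents set by the 37 °C libraries alone gave 3388 domains and a difference of -7.35 Mb. Each choice favours the libraries that set the edges, and both were added after the data were seen. In the 430 domains that held a single peak of at least 5000 bp in all 8 libraries, the covered length was 5.63 ± 0.315 Mb (SD, n = 4) at 37 °C and 4.85 ± 0.264 Mb (SD, n = 4) at 39 °C, with no overlap.

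The domains' part of all covered length was also smaller at 39 °C. Their share of the covered length of all regions called in every library was 26.6, 27.3, 27.4 and 26.8% in the 37 °C libraries and 24.4, 24.7, 24.5 and 25.1% in the 39 °C libraries. The ranges did not overlap, and the difference was -2.32 percentage points, with no test, as the share rests on the same pooled extents. The number of domains that held a single peak of at least 5000 bp was 2984, 1558, 1035 and 2356 at 37 °C and 1114, 948, 726 and 523 at 39 °C, where replicate 3 at 37 °C fell among the 39 °C libraries. The mean difference was -1156 domains, and -469 in the 6 libraries under 100 M fragments, with no test, since the rule used peak width. The median domain held 1 peak in the 2 deepest libraries and 2 in each of the others.

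**Figure D3:**
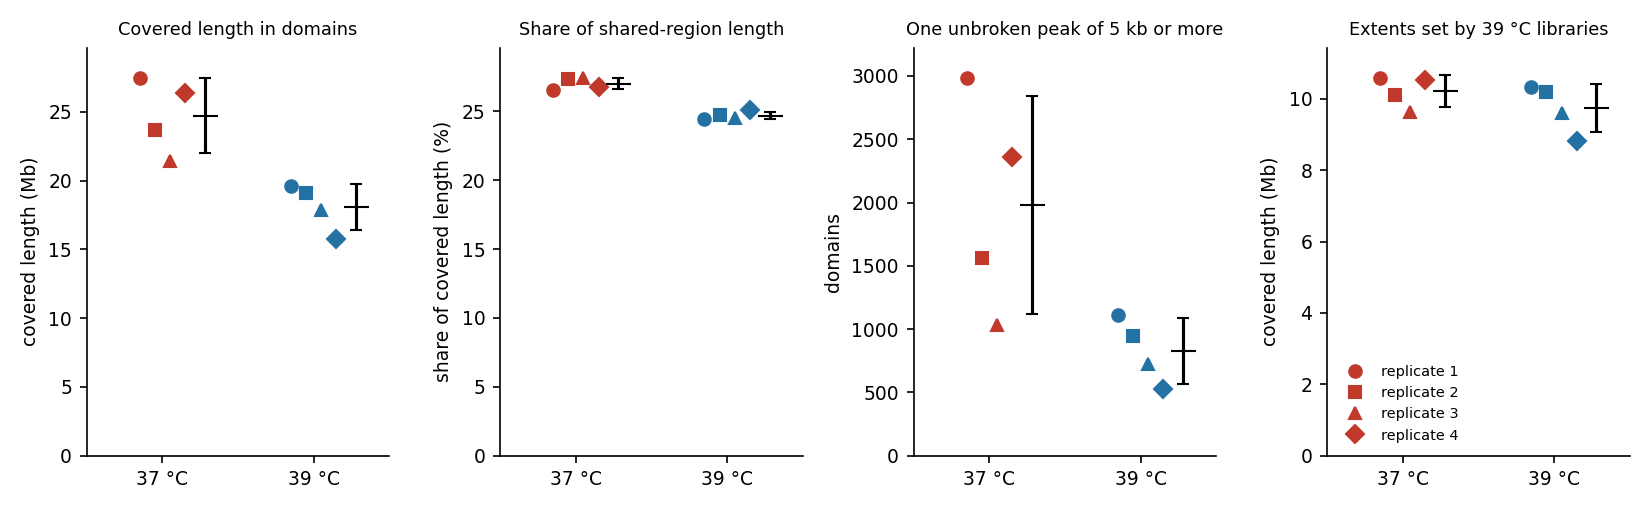
Values of each library at 37 °C (red) and 39 °C (blue), with marker shapes for replicates 1 to 4 and black bars for the group mean ± SD (n = 4). From left to right the vertical axes give covered length in the broad domains (Mb), their share of covered length in all regions called in every library (%), domains that held a single peak of 5 kb or more, and covered length in domains whose extents were set by the 39 °C libraries alone (Mb), the only panel of covered length in which the groups overlap.

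Domain by domain, the covered length was lower at 39 °C in 1582 of 3334 domains (47.5%) at an adjusted p under 0.05 in limma, where 16.4% of all 44848 regions were lower. It was higher in 2 domains, where 0.399% of all regions were higher. The width rule fixes part of this excess, since the merged width is mostly that of the 37 °C libraries. In 1447 domains a 37 °C library but no 39 °C library was covered over 5000 bp or more, and 942 of the 1582 lower domains were among these. Only 30 domains stood the other way round. Where at least 1 library of each group reached that length, 590 of 1739 domains (33.9%) were lower. Of the domains that held a single wide peak in all 8 libraries 27.0% were. The counts are therefore descriptions of the domains. So are the adjusted p-values of covered length given below for single domains, since the rule used peak width. Where no library of 1 group covered 5000 bp, the domain met the rule through the other group, and its covered length and height are given below with no test. The median difference was -0.38 on the log2 scale, against -0.24 over all regions. It was -0.25 against -0.09 in the 6 libraries under 100 M fragments, and -0.08 against 0.06 after centring. In 1736 domains (52.1%) the 4 libraries at 37 °C all lay above the 4 at 39 °C, beside 24.1% of all regions. The reverse held in 3 domains, at Mn1, near Ccne2 and at Mdm2, beside 0.74% of all regions. Without replicate 1 at 37 °C, 1022 domains (30.7%) were lower, beside 7.22% of all regions. Without replicate 4 at 37 °C, 974 (29.2%) were, beside 6.61%. In the 6 libraries under 100 M fragments 551 (16.5%) were lower and 6 (0.18%) higher, beside 2.68% and 0.435% of all regions. Centred on each library's median, 1062 domains (31.9%) were lower and 213 (6.39%) higher, beside 10.4% and 10.7% of all regions. This moves the higher share of the calls from 0.126% to 16.7% in the domains and from 2.38% to 50.6% over all regions.

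Domains with other features differed in how often they were called lower, as a description. Domains that held a whole coding gene were lower in 62.0%, those without a coding start in 50.8% and those with one in 45.2%. By width, the share was 44.7% at 5 to 10 kb, 59.3% at 10 to 20 kb and 52.3% at 20 kb or more, so it did not rise steadily. Domains that held a single wide peak in all 8 libraries were lower in 27.0%. Domains with fewer than 2 libraries holding such a peak were lower in 47.7%.

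Losses were called more often where domains were crowded, as a description with no test. In the 20 fullest windows of 2 Mb, 454 of 627 domains were lower (72.4%), against 41.7% elsewhere. Narrower regions showed the same order, with 33.01% lower in those windows and 13.1% elsewhere. At 80 to 82 Mb on chromosome 10, 60 of 65 domains were lower, with a median of -1.06, beside 43 of 81 narrower regions, and at 6 to 8 Mb on chromosome 19, 26 of 29 were, beside 21 of 65. By chromosome, the share ran from 65.1% on chromosome 15, 60.4% on chromosome 19 and 59.2% on chromosome 10 to 25.9% on chromosome 13. Over all regions called in every library the share was 24.1% on chromosome 15, 22.5% on chromosome 19, 17.6% on chromosome 10 and 9.96% on chromosome 13, with chromosome 11 the highest at 24.5% and chromosome X the lowest at 6.02%. The caller used a single background for the whole genome, so a stretch with moderately raised signal throughout counts as covered, and whether the losses are of such stretches was not tested.

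The 5 domains with the smallest p for a loss kept a short peak and lost the rest. All 5 reached 5000 bp through the 37 °C libraries alone. In the domain of Kiss1r and R3hdm4 (10465 bp, chr10:79911562-79922026), which holds the start of the kisspeptin receptor gene, the covered length was 9833, 8460, 8505 and 10036 bp at 37 °C and 1931, 1922, 1851 and 1913 bp at 39 °C, a log2 difference of -2.27 ± 0.08 (SE). In that of Grin3b, which encodes an NMDA receptor subunit (16578 bp, chr10:79963964-79980541), it was 16140, 15003, 13685 and 15715 bp at 37 °C and 2342, 2204, 1795 and 2291 bp at 39 °C, a difference of -2.82 ± 0.10 (SE). In a domain within Bahcc1 (11864 bp, chr11:120276275-120288138) it was 11118, 10383, 9089 and 11864 bp at 37 °C and 444, 443, 701 and 443 bp at 39 °C, a difference of -4.41 ± 0.16 (SE). All 3 went from cover of most of the domain to a remnant, with no library in between. The same held for Shmt2, the mitochondrial serine hydroxymethyltransferase gene (5216 to 5737 bp against 1614 to 1700 bp), and for a domain over Rexo1 (6562 to 7692 bp against 1248 to 1551 bp).

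The top of the domain was as high at 39 °C in some libraries of the Kiss1r domain and lower in all at Grin3b and Bahcc1. The highest fold enrichment in the Kiss1r domain was 36.9, 44.4, 42.4 and 39.7 at 37 °C and 40.2, 35.2, 41.8 and 23.6 at 39 °C, and after centring on each library's median the log2 difference was -0.06 ± 0.07 (SE). In the Grin3b domain it was 9.58, 11.6, 9.61 and 10.4 at 37 °C and 5.86, 4.04, 6.89 and 3.49 at 39 °C, a difference of -0.89 ± 0.12 (SE). In the Bahcc1 domain it was 7.59 to 9.97 at 37 °C and 3.04 to 5.19 at 39 °C, a difference of -0.88 ± 0.12 (SE). Shmt2 stood at -0.22 ± 0.10 (SE) and the Rexo1 domain at -0.30 ± 0.08 (SE).

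The 2 domains covered more at 39 °C were short, and both reached 5000 bp through the 39 °C libraries alone. At Mn1, a transcriptional regulator gene (6312 bp, chr5:111416336-111422647), the covered length was 3133, 3940, 3487 and 3648 bp at 37 °C and 5622, 4868, 5287 and 3989 bp at 39 °C, a log2 difference of 0.47 ± 0.12 (SE). In the domain 11094 bp from the start of Ccne2, the cyclin E2 gene (5745 bp, chr4:11174516-11180260), it was 3072, 1587, 744 and 2797 bp at 37 °C and 5745, 5066, 3912 and 4674 bp at 39 °C, a difference of 1.43 ± 0.40 (SE). The groups did not overlap in either. Neither call is used as support: that at Mn1 ended in the 6 libraries under 100 M fragments, with the replicate number as a block and in 5 of 8 cases when 1 library was left out, and that near Ccne2 ended in 5 of 8. Mdm2, which encodes the ubiquitin ligase of p53, was covered over 35575, 33933, 32417 and 34361 bp at 37 °C and 36297, 35902, 35926 and 35784 bp at 39 °C, with no overlap between groups. It was not called, at 0.08 ± 0.08 (SE, adjusted p = 0.465), but was called higher after centring on the library median (0.38, adjusted p = 0.0305).

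**Figure D4:**
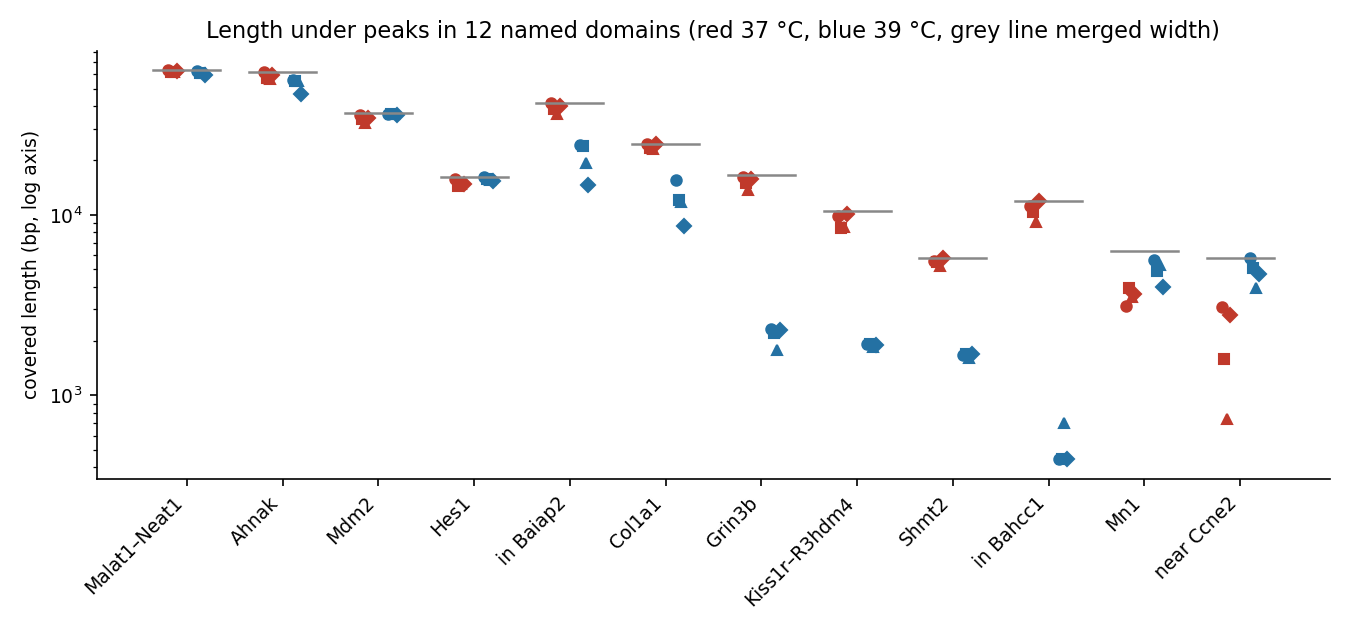
Length under peaks (bp, log axis) of 12 named domains in each 37 °C library (red) and 39 °C library (blue), with marker shapes for replicates 1 (circle), 2 (square), 3 (triangle) and 4 (diamond) and a grey line at the merged width. From left to right stand 4 domains not called without centring, 6 that lost cover, down to 443 bp in Bahcc1, and the 2 covered more.

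Of the 10 widest domains, the Baiap2 domain and the stretch from Stk11 to Cirbp were called lower and the other 8 were not called. The Baiap2 domain was covered over 41437, 38273, 36128 and 40149 bp at 37 °C and 24410, 23970, 19442 and 14525 bp at 39 °C, a difference of -0.95 ± 0.16 (SE, adjusted p = 0.00549, and 0.0973 in the 6 libraries under 100 M fragments). The stretch from Stk11 to Cirbp, which holds the gene of a cold-inducible RNA-binding protein, went from 43409 to 46119 bp down to 34280 to 39117 bp, a difference of -0.32 ± 0.09 (SE, adjusted p = 0.0354). That call ended after centring on the library median (-0.02, adjusted p = 0.89) and in the 6 libraries (-0.30, adjusted p = 0.301). Neither overlapped between groups. In the 8 that were not called the difference ran from -0.23 at Inf2 and Adssl1 to 0.08 at Mdm2, which was called higher only after centring.

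Of the 27 immediate early and AP-1 domains, 10 were covered less at 39 °C and none more, beside 1582 and 2 of all 3334 domains (47.5% lower) and 16.4% of all regions. The median was -0.23 against -0.38 for all domains. Those called were the domains of Jund, Klf2, Egr1, Egr2, Egr3, Fosl1 and Ier3, both of Nr4a1 and the smaller of Dusp1. Of these 10, 6 were covered over 5000 bp or more in at least 1 library of each group, among 23 such domains of the 27, and the others met the width rule through the 37 °C libraries. Klf2, a zinc finger factor gene, went from 6512, 6176, 4227 and 5800 bp to 2801, 2528, 2608 and 2632 bp, a difference of -1.09 ± 0.13 (SE), and Egr2 from 5817 to 6401 bp to 3994 to 4257 bp, a difference of -0.59 ± 0.06 (SE). Neither overlapped between groups, and neither reached 5000 bp in a 39 °C library. Centred on each library's median, 3 of the 27 were lower and 2 higher. The shares on that scale were 31.9% and 6.39% of all domains, and 10.4% and 10.7% of all regions. In the 6 libraries under 100 M fragments 2 were lower, beside 16.5% of all domains and 2.68% of all regions.

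The other lists had from 0 to 7 domains called, to be read beside the 47.5% of all domains and 16.4% of all regions that were lower. The YAP and TEAD list had 3 of 8 lower (Ccn1, Tead4 and Ankrd1), with Ankrd1, a stretch-responsive gene, at 11642 to 13668 bp against 5022 to 9473 bp, a difference of -0.80 ± 0.17 (SE, adjusted p = 0.0158). Among 14 mesenchymal domains, Col1a1, the collagen I gene, went from 24703, 23493, 23139 and 24672 bp to 15524, 12053, 11704 and 8714 bp, a difference of -1.03 ± 0.15 (SE, adjusted p = 0.0028), and Pdgfrb was the other called. Of 7 TGF-beta and BMP domains, 1 was called lower. Ankrd1 and Col1a1 were separated between groups. In the 6 libraries under 100 M fragments none of the YAP and TEAD or mesenchymal domains was called, where 16.5% of all domains were lower. Centred on each library's median, the YAP and TEAD list had 1 lower and the TGF-beta and BMP list 1 lower. The mesenchymal list then had 1 lower and 2 higher.

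The cell cycle and p53 list had 3 of 9 lower (Ccnd2, Ccnd3 and Trp53), the histone list 7 of 14 (1 of the 5 that had a library over 5000 bp in each group), the noncoding RNA hosts 3 of 6, heat shock 1 of 5 (Hsp90ab1), homeobox 1 of 6 (Six5) and markers of other cell types 2 of 3 (Krt8 and Tubb3). The histone and noncoding RNA shares are close to that of all domains. In the 6 libraries under 100 M fragments the cell cycle, noncoding RNA and heat shock lists had 0 lower, the histone list 4, homeobox 1 and other cell types 2. Centred on each library's median, the cell cycle list had 1 lower and 1 higher, the histone list 4 and 1, and homeobox 1 and 1. The noncoding RNA hosts then had 2 lower, other cell types 2 and heat shock 0, beside 31.9% lower and 6.39% higher of all domains. None of 8 neural progenitor domains was called without centring. After centring on the library median 2 of the 8 were higher, Irx3 and Hes1. Hes1, a target of Notch signalling, was covered over 15715, 14509, 14747 and 14833 bp at 37 °C and 16087, 15778, 15608 and 15297 bp at 39 °C, a difference of 0.07 ± 0.06 (SE, adjusted p = 0.422). The groups overlapped through replicate 1 at 37 °C. Cdkn1a, the p21 gene, was covered over 11620 to 12211 bp in all 8 libraries.

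Cover was highest at the start site in both groups and lower at 39 °C on either side of it. In the 1618 domains with a single coding start, the start itself lay under a peak in 98.9 ± 0.898% of domains in the 37 °C group and 94.1 ± 0.806% in the 39 °C group (SD over 4 libraries). At 3000 bp downstream the shares were 74.6 ± 12.0% and 51.2 ± 7.03% (SD, n = 4), and at 1500 bp upstream 54.7 ± 9.08% and 36.2 ± 4.50% (SD, n = 4). These differences were -23.4 and -18.6 percentage points. In the 6 libraries under 100 M fragments they were -13.9 and -11.2. The groups did not overlap at any of the 7 positions compared, from 3000 bp upstream to 8000 bp downstream. A position was counted whether or not it lay inside the domain, and the domains reached a median of 4885 bp downstream. At the far positions the peaks can therefore be those of neighbouring regions. These shares are descriptions with no test, since the 37 °C libraries set most of the width of the domains. At the start both groups are near the ceiling of 100%, so the size of the difference there cannot be set against that at other positions.

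**Figure D5:**
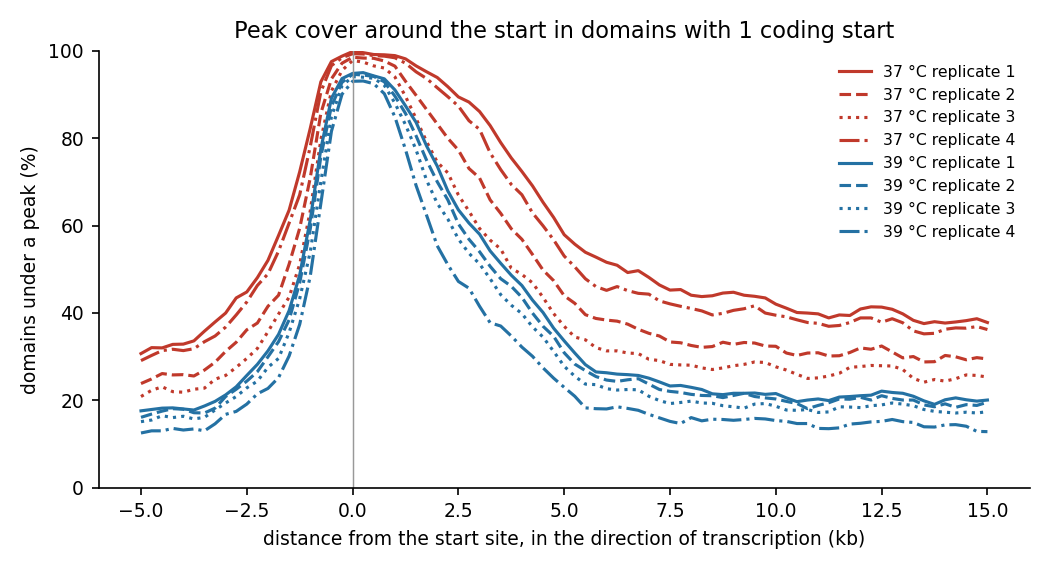
Share of the 1618 domains with a single coding start (%, vertical axis) in which the position at each distance from the start lay under a peak. Distance is in the direction of transcription (kb, horizontal axis), with 1 line per library at 37 °C (red) and 39 °C (blue). Positions outside the domain are included. All lines peak at the start or 250 bp downstream of it and fall more slowly downstream than upstream, and the 2 deep 37 °C libraries (replicates 1 and 4) lie highest.

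The direction of change in height depended on the scale. The highest fold enrichment, centred on each library's median over all regions, was lower at 39 °C in 548 domains (16.4%), where 19.6% of all regions were lower, and higher in 863 (25.9%), where 26.9% were higher. Neither share is far from that of all regions. Without replicate 1 at 39 °C the count of higher domains was 559 (16.8%, beside 22.4% of all regions). Without centring, 251 (7.53%) were lower and 18 (0.54%) higher, beside 10.9% and 3.93% of all regions. With quantile normalization 922 (27.7%) were lower and 373 (11.2%) higher, beside 23.0% and 20.8% of all regions. The median difference over all regions was 0.06 centred and -0.12 without centring, and over the domains 0.09 and -0.09. The balance of directions is therefore not fixed by these files, and each domain given next with its values had the same direction on all 3 scales.

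Domains without a coding start were lower in height in 375 of 1324 (28.3%) and those with one in 173 of 2010 (8.61%), beside 7339 of 31746 narrower regions without a coding start and 887 of 9768 with one, a contrast of the same direction. Of the domains without a coding start, 10.2% of the 274 that were higher at 39 °C had a p53 half-site at the summit, against 3.20% of the 375 that were lower and 7.26% of the 675 not called. Among narrower regions without a coding start the shares were 11.7% of those higher, 5.64% of those lower and 7.03% of those not called. AP-1 stood at 31.8%, 27.5% and 32.3% in the same 3 classes of domain. These shares are descriptions, and a match is not a site.

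The 5 domains with the smallest p for a rise in height lay away from coding starts. The domain near Ccne2, whose summit window held a p53 half-site, had a highest fold enrichment of 6.38, 7.86, 5.84 and 6.66 at 37 °C and 17.0, 15.2, 14.4 and 9.56 at 39 °C, a centred log2 difference of 1.23 ± 0.11 (SE). A domain in Cdkal1 had 25.0, 20.9, 20.2 and 24.0 against 44.8, 43.6, 44.5 and 30.1, a difference of 1.02 ± 0.08 (SE). In neither did a 39 °C library reach down to the 37 °C range. Domains in Nav2 (0.91), Rtn4r (0.87) and Pgpep1 (0.83) followed. Mn1, which is a promoter, stood at 0.88 ± 0.08 (SE). Those of Ccne2, Cdkal1 and Mn1 reached 5000 bp through the 39 °C libraries alone.

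Height and covered length had opposite directions at Rtn4r, the Nogo receptor gene. The domain (9236 bp, chr16:18148077-18157312) had a highest fold enrichment of 24.8, 26.2, 26.8 and 27.3 at 37 °C and 45.9, 48.6, 54.5 and 26.7 at 39 °C, where replicate 4 fell in the 37 °C range. It was covered over 7597, 7827, 5734 and 8420 bp at 37 °C and 2362, 2507, 2177 and 3496 bp at 39 °C, a difference of -1.50 ± 0.16 (SE), with no overlap, and met the width rule through the 37 °C libraries alone. Mdm2 rose in height on the centred scale, at 0.53 ± 0.09 (SE, adjusted p = 3.03e-05), with its covered length not called unless centred. Hes1 (0.51), Btg2 (0.52) and Notch1 (0.43) also rose in height, with covered length not called without centring. Without centring these 4 stood at 0.35, 0.33, 0.34 and 0.25, and none was called.

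Of the 5 domains with the smallest p for a fall in height, 3 were artefact-like. The first was a domain 19373 bp from the start of Trappc6b, 56.4% multi-copy, at 27.6 to 34.6 against 5.06 to 11.1, a difference of -1.73 ± 0.09 (SE, adjusted p = 3.15e-15). The other 2 lie side by side near Fcgr3 and are 88.9% and 84.0% multi-copy, so reads of other copies could count there. Outside that set, a domain in Kalrn, a guanine nucleotide exchange factor gene, went from 48.5, 39.5, 42.3 and 48.4 to 25.4, 21.1, 23.9 and 13.0, a difference of -0.96 ± 0.08 (SE), and a domain in Loxl1, a lysyl oxidase gene, from 38.9 to 40.9 to 14.4 to 25.6, a difference of -0.78 ± 0.07 (SE). Both reached 5000 bp through the 37 °C libraries alone. Both summit windows have TEAD matches, of which those in Loxl1 are printed above. The domain of Krt8, the keratin 8 gene, which met the width rule the same way, differed by -0.55 ± 0.08 (SE) in height and by -0.85 ± 0.10 (SE) in covered length.

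Histone gene domains were lower in height or not called on each of the 3 scales. Of the 14, 5 were lower and none higher on the centred scale, 2 were lower without centring and 11 with quantile normalization, and none was higher on any of the 3. Only 5 of the 14 had a library covered over 5000 bp or more in each group, so these counts are descriptions. Over all domains the shares lower on these scales were 16.4%, 7.53% and 27.7%. The domain of Hist1h1b and Hist1h3i (6177 bp, chr13:21778422-21784598) had 75.7, 85.0, 73.6 and 78.4 at 37 °C and 54.7, 48.4, 63.1 and 31.3 at 39 °C, a difference of -0.53 ± 0.07 (SE). The domain of Hist1h4k, Hist1h2ak and Hist1h2bn was covered over 6233, 6070, 5939 and 6310 bp at 37 °C and 3713, 3795, 3477 and 3349 bp at 39 °C, a difference of -0.78 ± 0.06 (SE). Neither domain reached 5000 bp in a 39 °C library, and neither overlapped between groups. Histone genes are near-identical copies transcribed in S phase, and reads that could come from several copies may be shared between them.

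Of the other lists, 13 of 27 immediate early and AP-1 domains were higher in height at 39 °C and none lower on the centred scale, beside 25.9% higher and 16.4% lower of all domains and 26.9% and 19.6% of all regions. Without centring none of the 27 was called, where 7.53% of all domains were lower and 0.54% higher. With quantile normalization 4 were lower and 5 higher. The shares on that scale were 27.7% and 11.2% of all domains, and 23.0% and 20.8% of all regions. Neural progenitor domains had 4 of 8 higher and 1 lower (Nes), the YAP and TEAD list 1 of 8 in each direction (Lats2 higher, Ankrd1 lower), and the homeobox list 3 of 6 higher, all on the centred scale and to be read beside the same shares. Without centring none of these was called. With quantile normalization, beside the shares of that scale, 6 of 8 YAP and TEAD domains were lower and 1 higher, neural progenitor domains 2 in each direction and homeobox domains 2 higher. Centred, heat shock had 3 of 5 higher, cell cycle and p53 3 of 9, mesenchymal 4 of 14, TGF-beta and BMP 2 of 7 and noncoding RNA hosts 2 of 6. The cell cycle and noncoding RNA lists each had 1 lower. None of these lists had a call without centring. With quantile normalization heat shock and TGF-beta and BMP had 2 lower each, noncoding RNA hosts 1 in each direction, and cell cycle and mesenchymal each 1 lower and 2 higher.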

How the data were processed

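Peak lists of 8 ATAC-seq libraries were used. Per the labels and the study's methods, the authors aligned reads to mm10 with Bowtie2 2.4.1, sorted and removed duplicates with SAMtools 1.15.1 and Picard 2.26.11, and called peaks in each library on its own with MACS3 3.0.0a7 at a q-value of 0.05, without a control and without a local background. The deposited lists give each peak's pileup signal (fragments over the summit, not scaled for depth), its fold enrichment (the ratio of pileup to 1 background per library, each with 1 added) and −log10 of the p-value and of the q-value the caller gave it. MACS kept 1 fragment per position, and the file headers gave 49.8 to 169 M (mega) kept fragments per library. The peaks' edges and heights move with that depth.

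Peaks were merged at 1 bp overlap. Covered length is the number of bases of a domain under a library's peaks, and height is the highest fold enrichment of its peaks there. Both were tested on a log2 scale, with no pseudocount, across all 44848 regions called in every library with limma 3.58.1 (R 4.3.3, moderated with a trend) and Benjamini-Hochberg adjustment at 0.05, height after subtracting each library's median. Covered length summed over the domains, its share, the counts of peaks and of single wide peaks, and the profile around start sites rest on the widths the rule used, and the exact permutation tests planned for them are not given. The limma step was checked on simulated data. Genes came from GENCODE M21, and sequence from the GRCm38 (mm10) assembly. A CpG island was 200 bp or more with a C+G share of at least 0.5 and an observed to expected CpG ratio of at least 0.6. A domain was called artefact-like at 50% or more repeat, 20% or more multi-copy 50-base words, within 10000 bp of an assembly gap of at least 1000 bp, or when among the tallest 0.1% of peaks in at least 4 libraries.

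The members, gene lists and tests were chosen with earlier results of these data known. The domains named were the 10 widest and 5 tallest outside the artefact-like set, up to 5 in each direction with the smallest p for each measure, those at the width limit, the widest artefact-like ones and those holding a start of a listed gene. Replicate numbers were compared as pairs: covered lengths of same-numbered libraries deviated from their group means with correlations of 0.224, -0.0486, 0.00198 and -0.191. These values show no common pairing by number in covered length. They cannot show whether same-numbered libraries were prepared together. Alternatives were the 6 shallower libraries, other peak and width thresholds, equal numbers of peaks, other scalings, leaving out each library, and the replicate block. No 2 libraries held identical values. Some named domains and regions that the naming rule covers are not reported here.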

Additional observations from a re-analysis of the deposited data

Results flagged for a closer look

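Among 62 sets of 4 libraries tested, 2 values stood apart from the other 3 of their group by Dixon's test at the 95% level, where chance alone gives about 3.1. The domain of Ahnak was covered over 46832 bp in replicate 4 at 39 °C, against 54918 to 55946 bp in the other 39 °C libraries, and the gap made up 0.887 of the group's range. That library also had the lowest median height in the domains, and its part in the value was not tested. The domain within Bahcc1 was covered over 701 bp in replicate 3 at 39 °C, against 443 to 444 bp in the other 39 °C libraries (0.996 of the range), all far below the 9089 to 11864 bp at 37 °C.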

How the results depend on the processing

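The covered length of the domains was lower at 39 °C under every alternative run, and by -0.471 Mb, with groups that overlapped, when the 39 °C libraries alone set the extents, an alternative added after the data were seen. It was -4.48 Mb in the 6 libraries under 100 M fragments and ranged from -7.76 to -5.74 Mb when 1 library was left out. The share of covered length was -2.68 percentage points in those 6 libraries and ranged from -2.47 to -2.18 without 1 library. The count of domains with a single wide peak ranged from -1472 to -822 without 1 library, and the median number of peaks differed by 0 with a 4000 bp limit and in the 6 libraries. There were 5379 domains at a 4000 bp limit, and 1947 when peaks had to cover 50% of the region in every library. Domains covered less numbered 551 in the 6 libraries, 974 to 2027 without 1 library, and 116 among those with a single wide peak in all 8. Domains covered more numbered 213 after centring, 5 with equal numbers of peaks, 6 in the 6 libraries, 1 at −log10 q of at least 5, 0 among those with a single wide peak in all 8 and 0 to 5 without 1 library. Domains lower in height numbered 251 without centring and 922 with quantile normalization. Domains higher in height numbered 18, 373 and, in the 6 libraries, 533, and 559 to 1191 without 1 library. Domains with all 39 °C libraries above all 37 °C ones numbered 9 with equal numbers of peaks. Causes of these changes were not tested.

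With the replicate number as a block, the covered length differed by -6.65 Mb and the share by -2.32 percentage points, as without it, and limma called 1320 domains lower and 2 higher in covered length and 549 lower and 844 higher in height. Not every library correlated best with its own number: the highest correlation, 0.252, was between replicate 3 at 37 °C and replicate 4 at 39 °C.

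Depth limits these results: the weakest peak that could be called stood at 1.54 times background in the deepest library and 2.14 times in replicate 4 at 39 °C, so a shoulder below that height counts as closed in the shallower libraries. Depth and group cannot be fully told apart, since both deep libraries are at 37 °C.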
